A study of Rattus norvegicus with 6 samples.

Results

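The ligands and receptors of the tumour necrosis factor (TNF) superfamilies were followed in heart muscle of male Wistar rats at 6 h after surgery. Members were the array probes whose RefSeq accession names a gene with a symbol that begins with Tnfsf or Tnfrsf, or 1 of a short list of family genes with other symbols (Tnf, Lta, Ltb, Ltbr, Fas, Faslg, Cd40, Cd40lg, Cd27, Cd70, Ngfr, Eda2r). This gave 30 genes of the 13870 named on the array, each with 1 probe: 12 ligands and 18 receptors. The left anterior descending coronary artery (LAD) of 3 rats was tied, and the border zone of the infarct was found by staining and sampled (arrays M17, M24 and M25). The other 3 rats had a sham operation and gave control zone myocardium (arrays C4, C5 and C6). All 6 RNA samples were labelled with Cy3 and hybridised to 1 Agilent array each. The labels name no genotype or drug.

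TNF family ligands are made mostly as membrane proteins that act as trimers, on a neighbouring cell or after they are cut from the surface. Their receptors fall into those with a death domain, such as Tnfrsf1a and Fas, which can recruit the machinery of caspase-dependent death, and those without one, which bind TRAF adaptors and lead to NF-kappaB and MAP kinase signalling. Soluble decoy receptors take up ligand without passing a signal. In the heart, TNF receptors are found on cardiomyocytes, endothelial cells and fibroblasts as well as on leukocytes.

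Levels are given as log2 signal minus the 75th percentile of the array, so that 0 is the brightness of the probe at that percentile. They can be set against each other between arrays for 1 probe, not between genes. Probes well above background made up between 51.0% (C5) and 78.3% (M25) of each array, and the 3 border-zone arrays and C4 were read in 1 scan, while C5 and C6 were each scanned alone. Arrays C5 and C6 stood apart in a list of 9 measured markers of central nervous tissue, whose summed signal (in units of the 75th percentile) was 12.7 and 15.7 there against 1.15 to 1.95 on the other 4 arrays. On these, 8 of the 9 markers were well above background, against 4 of 9 elsewhere, and Syt1 was so on no array. The value of M25 fell between those of M17 and M24 for 70.5% of all probes tested and for 14 of the 23 member genes tested. It did so for 97.6% of the 572 probes more than 2-fold apart on M17 and M24, a choice that by itself makes this likelier. The study names 3 rats per group. Whether M25 is a separate animal was not tested, n = 3 counts arrays, and p-values measure only the spread between these. Markers of cardiomyocytes were well above background on every array (7 of 7), and none of them passed the test (0 of 7 at an unadjusted p under 0.05 in limma). Results for the called members are therefore also given against C4 alone, which is what the fit with scan as a block amounts to and which holds no spread between sham rats, and without M25.

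Of the 6 members that rose in the border zone, 5 were receptors, as were 15 of the 23 members tested. The large changes were those of Tnfrsf12a (10.2-fold), Tnfrsf1a (3.98-fold) and Tnfrsf1b (2.66-fold), all higher, while Tnf itself was not called. Of the 30 genes, 23 were tested, those whose probe was well above background throughout 1 group of 3 arrays or both. Among these, 6 rose (Tnfrsf12a, Tnfrsf1a, Tnfrsf1b, Ltbr, Tnfrsf18, Faslg), 5 fell (Tnfrsf25, Tnfsf10, Ngfr, Fas, Tnfsf13) and 12 did not pass. Over all 17930 probes tested, 9.01% rose and 10.3% fell (19.3% called), at an adjusted p below 0.05 in limma. Groups did not overlap for 16 of the 23, against 43.7% of all probes tested, and in 10 of these the border zone was higher (20.9% of all probes). The rise was at least 2-fold for 5 members, against 4.39% of all probes. Over the tested members the log2 fold change had a median of 0.34 (0.19 against C4), and over all probes one of -0.026. In 6 of the 23 the sham arrays were only in part well above background, so these entered through the border zone. The number of falls moved with the scaling: 2 members fell with median scaling (all-probe median 0.16) and 3 with quantile normalization (all-probe median 0.094), both beside 6 that rose. In bulk tissue, fewer cells of a type and less RNA per cell cannot be told apart.

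**Figure D1:**
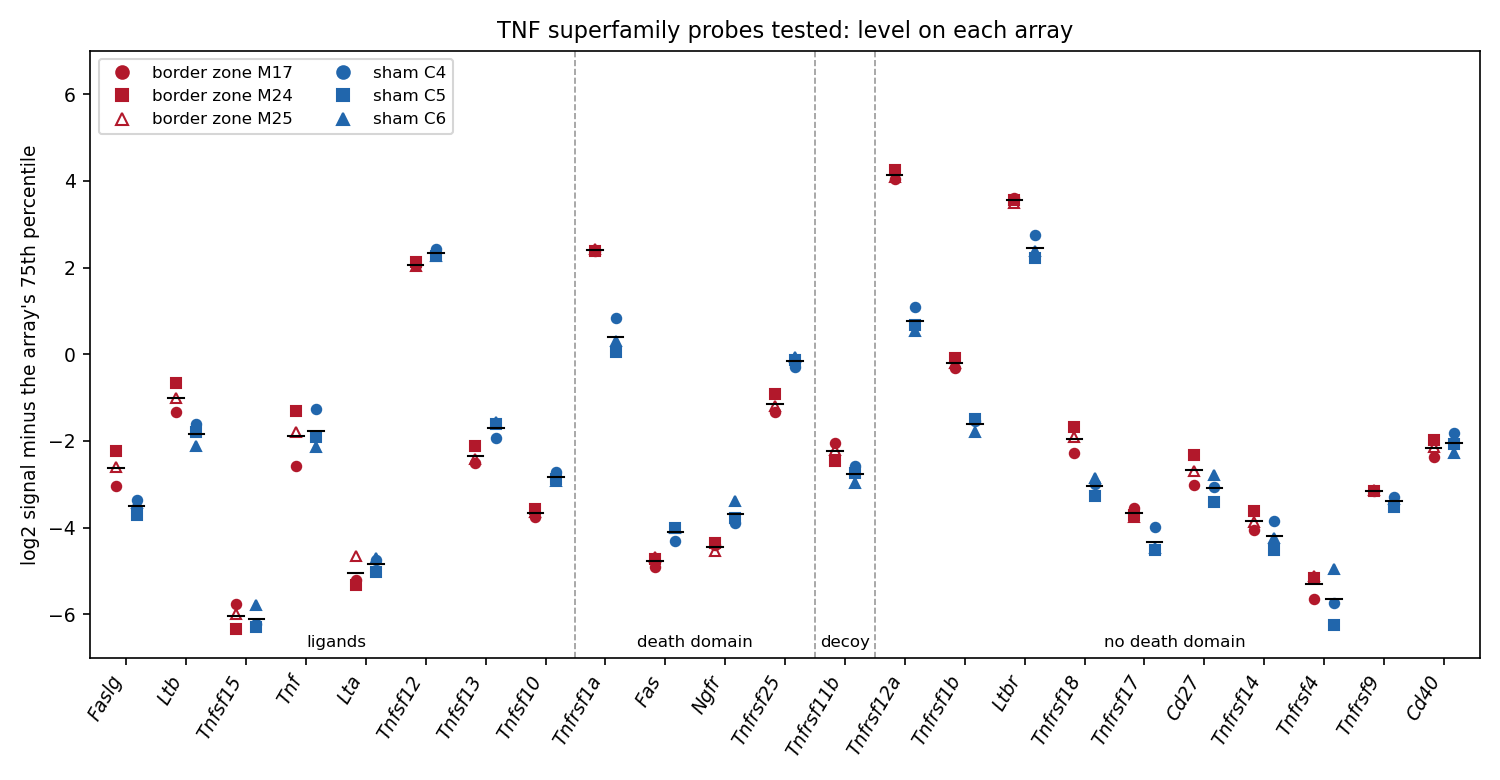
Level of each of the 23 tested TNF superfamily probes (log2 signal minus the 75th percentile of the array) on the 3 border-zone arrays (red) and the 3 sham arrays (blue), with a black line at each group mean and dashed lines between roles. Tnfrsf12a lies at 4.04 to 4.24 on the border-zone arrays and at 0.55 to 1.1 on the sham arrays, while the groups overlap for Tnf.

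Among receptors without a death domain, 4 of 10 tested genes rose and none fell, against 9.01% and 10.3% of all probes tested. The unadjusted p in limma was under 0.05 for 1 of the other 6. For 3 of the 10, none of them called, the sham arrays were only in part well above background, so these entered through the border zone. Tnfrsf12a (Fn14), the receptor of the ligand TWEAK and known as a growth factor-inducible gene, had border-zone levels of 4.04 (M17), 4.24 (M24) and 4.1 (M25). Its sham levels were 1.1 (C4), 0.68 (C5) and 0.55 (C6). All border-zone arrays lay far above all sham arrays, and C4 was the highest of the latter. The log2 fold change was 3.35 ± 0.17 (SE, n = 3 arrays per group, adjusted p = 0.000799), 3.03 against C4 and 3.37 without M25 (adjusted p = 0.0132). Of all probes tested, 49 (0.273%), this one included, rose at least as far.

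Tnfrsf1b (TNFR2), the TNF receptor found mainly on leukocytes and endothelium, was at -0.31, -0.090 and -0.20 on the border-zone arrays. The sham arrays gave -1.53, -1.50 and -1.79, close to each other and all below. Its rise of 1.41 ± 0.13 on the log2 scale (adjusted p = 0.0032) was 1.33 against C4 and 1.41 without M25. It remained called under both (adjusted p = 0.0175 and 0.0369).

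Ltbr, the receptor of membrane-bound lymphotoxin and a route to noncanonical NF-kappaB, was at 3.59, 3.56 and 3.49 in M17, M24 and M25. It stood at 2.75, 2.21 and 2.38 in C4, C5 and C6, with C4 nearest to the border zone. The log2 fold change was 1.1 ± 0.16 (adjusted p = 0.0107), or 0.80 against C4 (adjusted p = 0.0242). The call ended when any 1 border-zone array was left out (adjusted p = 0.0513 without M17, 0.0521 without M24, 0.0693 without M25), with log2 fold changes of 1.08 to 1.13.

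Tnfrsf18 (GITR), a receptor of regulatory and activated T cells, had border-zone levels of -2.27, -1.67 and -1.91. Sham levels were -3.00, -3.26 and -2.85, so the groups did not overlap, though the border-zone arrays themselves differed. The log2 fold change was 1.09 ± 0.20 (adjusted p = 0.0187), 1.05 against C4 (adjusted p = 0.0733) and 1.07 without M25 (adjusted p = 0.102). With normexp background correction it was 0.47 (adjusted p = 0.127). No marker of T and NK cells passed the test (6 tested, 0 at an unadjusted p under 0.05 in limma), with summed signals of 3.12 to 4.23 in the border zone and 3.06 to 3.42 in sham; the part of cell numbers was not tested.

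Of 4 receptors with a death domain that were tested, 1 rose and 3 fell, against 9.01% and 10.3% of all probes tested. None of the 3 falls kept its call without M25. Tnfrsf1a (TNFR1), the broadly expressed receptor through which soluble TNF acts, was at 2.38, 2.39 and 2.43 on M17, M24 and M25. The sham arrays were at 0.85 (C4), 0.063 (C5) and 0.31 (C6). The border-zone arrays lay close together and the sham arrays did not, with C4 again nearest to the border zone. The log2 fold change was 1.99 ± 0.21 (adjusted p = 0.00446), 1.55 against C4 (adjusted p = 0.0103) and 1.98 without M25 (adjusted p = 0.0407).

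Tnfrsf25 (DR3), the receptor of Tnfsf15 known from lymphocytes, was at -1.33, -0.91 and -1.18 in the border zone. It stood at -0.28, -0.13 and -0.055 in sham, all higher than any border-zone array. It fell by 0.98 ± 0.15 on the log2 scale (adjusted p = 0.0115). The change was -0.86 against C4 (adjusted p = 0.0641) and -0.96 without M25 (adjusted p = 0.0819), past the threshold in neither.

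Ngfr (p75NTR), the neurotrophin receptor of nerve and Schwann cells, was at -4.40, -4.36 and -4.55 on the border-zone arrays. Sham levels were -3.89, -3.78 and -3.38. The log2 fold change was -0.75 ± 0.17 (adjusted p = 0.0302), -0.55 against C4 (adjusted p = 0.0583) and -0.70 without M25 (adjusted p = 0.146). The 6 markers of peripheral nerve and Schwann cells had summed signals of 1.03 to 1.27 in the border zone, 1.54 on C4, and 3.4 and 4.48 on C5 and C6. The marker S100b, which central nervous tissue also expresses, was at 1.05 and 1.64 on C5 and C6 and at -2.74 or lower on the other arrays. The one marker of this list that was called, Prx, rose (0.75, adjusted p = 0.0352), and the part of nerve tissue in the fall was not tested.

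Fas, the receptor of Fas ligand and an inducer of apoptosis, was at -4.91, -4.72 and -4.67 in M17, M24 and M25, where it was well above background. The sham levels were -4.29, -4.00 and -4.01, of which only that of C4 was well above background. Fas fell by 0.67 ± 0.14 on the log2 scale (adjusted p = 0.0265), a value that rests in part on dim sham spots. Against C4 it was -0.47 (adjusted p = 0.0946), without M25 -0.72 (adjusted p = 0.116), and it kept its call in 1 of the 12 alternatives that tested it (without C4).

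**Figure D2:**
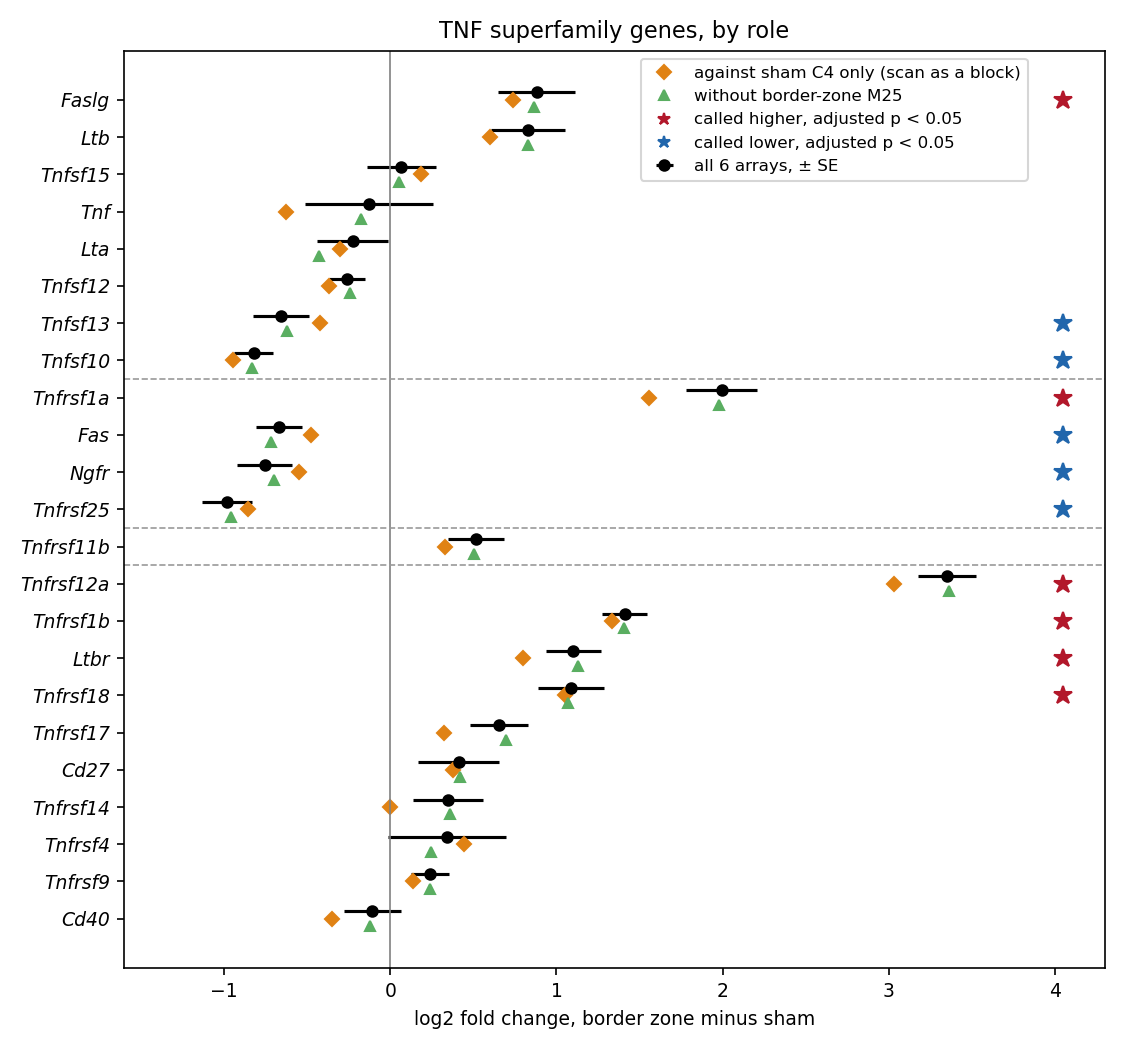
Log2 fold change (border zone minus sham) of the 23 tested genes by role, from all 6 arrays (black, ± SE), against sham C4 alone (orange) and without border-zone array M25 (green), with a star where the adjusted p from all 6 arrays was below 0.05. Tnfrsf12a has the largest value, 3.35, and the orange points lie nearer to 0 than the black ones for Tnfrsf12a, Tnfrsf1a and Ltbr.

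The start regions of the 4 receptors with rises called in the most alternatives, and of Tnf for comparison, are printed below. RefSeq (GRCr8) sequences of 250 bases before to 50 after the gene start were at hand for 22 of the 30 members. They were searched on both strands for the NF-kappaB consensus, the AP-1 motif TGANTCA, the GC box GGGCGG and the TATA box TATAAA, which can overlap each other and themselves. Capitals mark every match of these motifs, 5′ to 3′ on the strand of the gene.
Tnfrsf12a (chr10:13213599-13213898, minus strand): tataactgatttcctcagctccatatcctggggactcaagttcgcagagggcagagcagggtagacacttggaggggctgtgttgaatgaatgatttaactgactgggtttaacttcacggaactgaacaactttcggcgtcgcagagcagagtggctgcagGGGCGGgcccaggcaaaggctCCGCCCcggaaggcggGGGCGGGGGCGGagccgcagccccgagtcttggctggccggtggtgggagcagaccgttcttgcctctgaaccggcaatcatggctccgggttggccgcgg
Tnfrsf1a (chr4:159836869-159837168, plus strand): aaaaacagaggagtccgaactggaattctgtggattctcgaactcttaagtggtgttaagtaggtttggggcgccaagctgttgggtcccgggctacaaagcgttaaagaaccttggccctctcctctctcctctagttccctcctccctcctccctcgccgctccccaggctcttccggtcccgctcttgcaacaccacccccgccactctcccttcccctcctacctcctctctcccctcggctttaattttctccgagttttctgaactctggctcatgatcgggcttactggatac
Tnfrsf1b (chr5:162387362-162387661, minus strand): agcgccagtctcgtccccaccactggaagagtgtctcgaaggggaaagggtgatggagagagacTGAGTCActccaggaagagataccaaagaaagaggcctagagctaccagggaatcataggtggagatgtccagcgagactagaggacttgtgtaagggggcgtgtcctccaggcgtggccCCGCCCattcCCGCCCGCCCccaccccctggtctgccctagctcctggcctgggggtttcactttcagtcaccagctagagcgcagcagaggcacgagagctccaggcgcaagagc
Ltbr (chr4:159801467-159801766, minus strand): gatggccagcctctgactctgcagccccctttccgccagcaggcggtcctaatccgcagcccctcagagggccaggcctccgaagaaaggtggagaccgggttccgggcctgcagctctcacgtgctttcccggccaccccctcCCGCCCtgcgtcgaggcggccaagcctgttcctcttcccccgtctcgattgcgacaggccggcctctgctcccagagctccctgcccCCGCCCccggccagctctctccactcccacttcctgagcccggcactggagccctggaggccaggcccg
Tnf (chr20:3626435-3626734, plus strand): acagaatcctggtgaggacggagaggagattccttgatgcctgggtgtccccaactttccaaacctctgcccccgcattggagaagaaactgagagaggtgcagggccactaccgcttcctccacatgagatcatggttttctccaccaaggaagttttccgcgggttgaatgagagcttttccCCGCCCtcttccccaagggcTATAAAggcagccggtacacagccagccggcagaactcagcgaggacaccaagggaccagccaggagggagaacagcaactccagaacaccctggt
In Tnfrsf12a all capitals are GC boxes, 4 in number, and the same holds for the 2 of Ltbr. Tnfrsf1b held 1 AP-1 motif and 3 GC boxes, of which a pair overlap. Tnf held 1 GC box and 1 TATA box, and Tnfrsf1a none of the 4 motifs. The GC box occurred in 13 of the 22 member windows and in 33.1% of all 33469 windows of this length. The NF-kappaB consensus occurred in 5 of 22 (Cd70, Fas, Lta, Ltb, Tnfrsf8), against 7.51% of all windows, AP-1 in 3 of 22 (Fas, Tnfrsf1b, Tnfrsf8) against 7.33%, and the TATA box in 6 of 22 against 14.2%. Of the 5 genes with the NF-kappaB letters in this window, Fas fell, Lta and Ltb were not called, and Cd70 and Tnfrsf8 were not tested. These are matches of letters, not sites of binding.

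Of 8 ligands tested, 1 rose, 2 fell and 5 did not pass, against 9.01% that rose and 10.3% that fell over all probes tested. The median log2 fold change of these 8 was -0.18, or -0.34 with C4 as the only sham array. Tnf, the founding cytokine of the family, was at -2.59, -1.30 and -1.80 on the border-zone arrays and at -1.27, -1.90 and -2.13 on the sham arrays. The groups overlapped, with the highest value on C4 and the lowest on M17. The log2 fold change was -0.13 ± 0.39 (95% confidence interval -1.08 to 0.82, adjusted p = 0.83). Its sign turned with the setting, from -0.63 against C4 to 0.22 without M17.

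Faslg, the ligand of Fas made by cytotoxic lymphocytes, was at -3.03, -2.23 and -2.59 in the border zone and at -3.36, -3.71 and -3.42 in sham. The groups did not overlap, with M17 nearest to sham. Its rise of 0.88 ± 0.23 (adjusted p = 0.048) lay close to the threshold and was 0.74 against C4 (adjusted p = 0.208), 0.87 without M25 (adjusted p = 0.172) and 0.030 with normexp (adjusted p = 0.928). Ltb (lymphotoxin beta), part of the ligand of Ltbr, was at -1.34, -0.66 and -1.01 against -1.6, -1.78 and -2.11. All border-zone arrays were above all sham arrays, and the log2 fold change of 0.83 ± 0.22 just missed the threshold (adjusted p = 0.0526). It was 0.6 against C4 (adjusted p = 0.229) and was called in 3 alternatives.

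Tnfsf10 (TRAIL), a ligand that can start apoptosis, was at -3.76, -3.58 and -3.63 on M17, M24 and M25. Sham arrays gave -2.71, -2.88 and -2.92, so that both groups were tight and apart. It fell by 0.82 ± 0.12 on the log2 scale (adjusted p = 0.00964), and the change was -0.95 against C4 (adjusted p = 0.0246) and -0.83 without M25 (adjusted p = 0.0771). Tnfsf13 (APRIL), a survival factor of plasma cells, was at -2.51, -2.12 and -2.43 in the border zone and at -1.93, -1.6 and -1.55 in sham. Its log2 fold change was -0.66 ± 0.17 (adjusted p = 0.0445), -0.42 against C4 (adjusted p = 0.2) and -0.62 without M25 (adjusted p = 0.184). Its call held in 2 of 13 alternatives.

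Tnfsf12 (TWEAK), the ligand of Tnfrsf12a, was at 2.05, 2.12 and 2.03 in the border zone and at 2.44, 2.27 and 2.27 in sham. The border-zone arrays lay just below the sham arrays, with a log2 fold change of -0.26 ± 0.11 (95% confidence interval -0.53 to 0.0080, adjusted p = 0.147). Lta (-0.23 ± 0.21) and Tnfsf15 (0.067 ± 0.21) did not pass, and for both the sham probes were well above background on C4 only.

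Ligands can be set beside the receptors that bind them where both were measured. Beside Tnfsf12 at -0.26, Tnfrsf12a was at 3.35, and beside Tnf at -0.13, Tnfrsf1a was at 1.99 and Tnfrsf1b at 1.41 on the log2 scale. Faslg rose by 0.88 where Fas fell by 0.67, with calls kept in 6 of 13 and 1 of 12 alternatives. Ltb and Ltbr were both positive (0.83 and 1.1), of which only Ltbr was called. Tnfrsf25 fell by 0.98, with its ligand Tnfsf15 at 0.067, and Tnfsf13 fell by 0.66 while Tnfrsf17 (BCMA), which binds it, was at 0.65 ± 0.18 (adjusted p = 0.0515). The differences within pairs were not tested.

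The other receptors did not pass. The decoy receptor Tnfrsf11b (osteoprotegerin), which takes up Tnfsf11 and Tnfsf10, was at -2.04, -2.47 and -2.21 in the border zone and at -2.57, -2.73 and -2.97 in sham. The groups did not overlap, and the log2 fold change of 0.52 ± 0.17 had an unadjusted p of 0.0229 in limma (adjusted p = 0.0842). The change was 0.33 against C4 and 0.038 with normexp (adjusted p = 0.846). Cd27, Tnfrsf14 (HVEM), Tnfrsf4 (OX40), Tnfrsf9 (4-1BB) and Cd40, costimulatory receptors of lymphocytes and antigen-presenting cells, had log2 fold changes between -0.11 (Cd40) and 0.41 (Cd27), with adjusted p from 0.185 (Tnfrsf9) to 0.68 (Cd40). Tnfrsf14, Tnfrsf17 and Tnfrsf4 were well above background on C4 as the only sham array.

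In all, 7 members were not tested: the ligands Cd40lg, Cd70, Tnfsf4 and Tnfsf11 and the receptors Tnfrsf8, Tnfrsf19 and Tnfrsf21. Of these, Cd40lg was well above background on M25 and Tnfrsf8 on M24 and M25, and the others on no array. Their levels on C5 and C6 lay between -6.24 and -4.25, all under the lowest signals called well above background there (-4.49 and -3.98). Values on those arrays are bounds, and no fold is given.

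Several members lie side by side in the genome, by their order in the RefSeq table of GRCr8. Ltbr and Tnfrsf1a, which both rose, have 1 coding gene between them on chromosome 4, and Cd27, with 1 coding gene between it and Ltbr, was not called. Tnfrsf1b rose while its neighbour Tnfrsf8 on chromosome 5 was not tested, and Tnfrsf18 rose beside Tnfrsf4, which was not called. Lta, Tnf and Ltb lie next to each other on chromosome 20 and none was called (unadjusted p under 0.05 for Ltb only, 0.0104). Tnfsf13 fell beside Tnfsf12 on chromosome 10, which was not called.

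**Figure D3:**
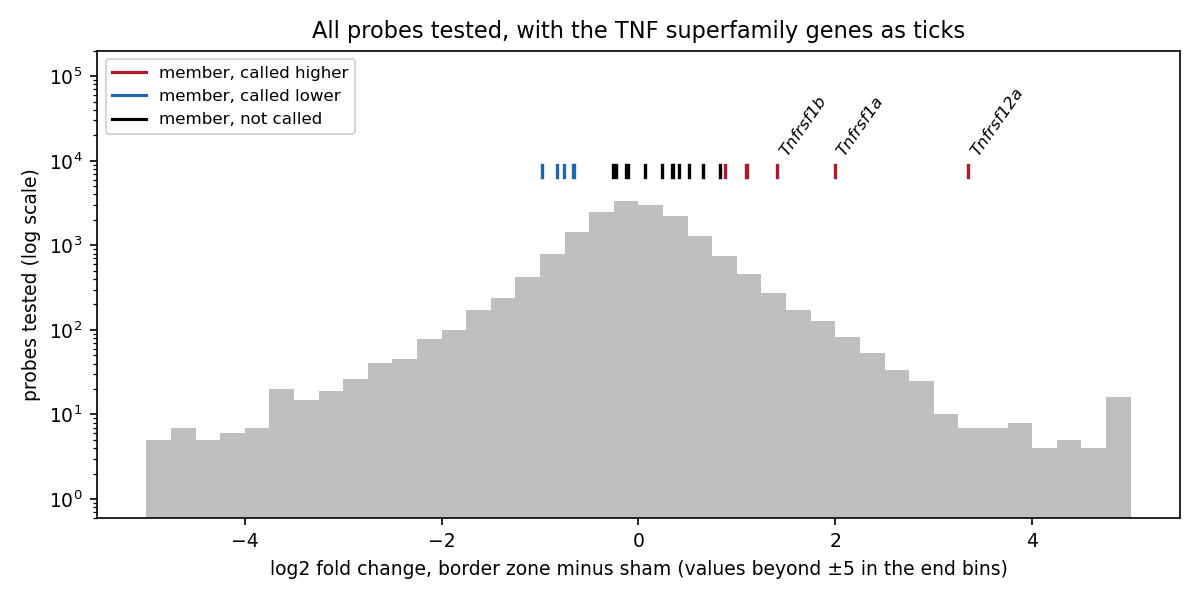
Number of probes (log scale) per 0.25-wide bin of log2 fold change (border zone minus sham) over all 17930 probes tested, with the 23 tested TNF superfamily genes as ticks above. The ticks of Tnfrsf1b (1.41), Tnfrsf1a (1.99) and Tnfrsf12a (3.35) lie to the right of the other members, and Tnfrsf25 has the lowest value, -0.98.

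Other genes of the pathway were read from a list of 57, of which 41 were measured and all of these tested. Of the 41, 10 rose, 3 fell and 28 did not pass, against 9.01% that rose and 10.3% that fell over all probes tested. Their median log2 fold change was 0.31 (-0.026 over all probes). With C4 as the only sham array, every list had a lower median than with all 6 arrays. It was 0.706 for TNF-induced genes (0.766 with all 6), 0.191 for ligand processing (0.339) and 0.148 for kinases and NF-kappaB genes (0.228). For ubiquitin enzymes and editors it was 0.016 (0.347), for adaptors -0.036 (0.141) and for death effectors -0.3 (0.319). All probes had a median of -0.042 in that setting. Without M25, 2 of the 41 rose and none fell in limma at an adjusted p below 0.05, against 1.59% and 1.24% of all probes. At an unadjusted p under 0.05 in that fit, 13 were higher and 4 lower. The list holds TNF-induced genes known to respond to other signals too.

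Among the 7 adaptors at the receptors, 1 rose: the kinase Ripk1, which sits at the branch between survival and death, at 0.67 ± 0.12 (adjusted p = 0.0166, which became 0.06 against C4 and 0.111 without M25). Among 9 ubiquitin enzymes and editors, Birc3 rose by 1.75 ± 0.36 (adjusted p = 0.0263; 1.14 against C4, adjusted p = 0.146) and Birc2 by 0.77 ± 0.13 (adjusted p = 0.0139, which became 0.0947 without M25). Both encode inhibitor of apoptosis proteins of the TNF receptor complex. Rbck1 (HOIL-1), of the linear ubiquitin complex, fell by 0.48 ± 0.11 (adjusted p = 0.0349), a call kept in 2 of 13 alternatives, with -0.295 under median scaling (adjusted p = 0.198). Among 9 kinases and NF-kappaB genes, the inhibitor Nfkbia rose by 1.00 ± 0.25 (adjusted p = 0.0438) and the kinase Map3k7 (TAK1) by 0.71 ± 0.18 (adjusted p = 0.0467). The call of Nfkbia was kept in 6 of 13 alternatives (1.42 against C4) and that of Map3k7 in 3 of 13 (0.35 against C4, adjusted p = 0.141).

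Of the 5 death effectors, the necroptosis kinase Ripk3 rose by 2.41 ± 0.32 (adjusted p = 0.00759), 1.91 against C4 (adjusted p = 0.0534). Casp8 (-0.21), Cflar (0.32) and Bid (0.52) did not pass. Among 2 genes of ligand processing, Rhbdf2 (iRhom2), which escorts the TNF sheddase, rose by 0.52 ± 0.12 (adjusted p = 0.0382), a call kept in 5 of 13 alternatives (adjusted p = 0.0779 against C4).

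Of 9 TNF-induced genes, 3 rose and 1 fell. The monocyte attractant Ccl2 rose by 4.01 ± 0.20 (adjusted p = 0.000791), 3.64 against C4 and 4.02 without M25. The endothelial selectin Sele rose by 2.87 ± 0.27, with 2 of 3 sham arrays well above background, and the adhesion molecule Icam1 by 1.98 ± 0.34 (adjusted p = 0.0157, which became 0.0993 against C4 and 0.0851 without M25), while Tnfaip8 fell by 0.86 ± 0.15 (adjusted p = 0.0154, which became 0.097 without M25). Vcam1, at 2.07 ± 0.70, did not pass (adjusted p = 0.0894).

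**Figure D4:**
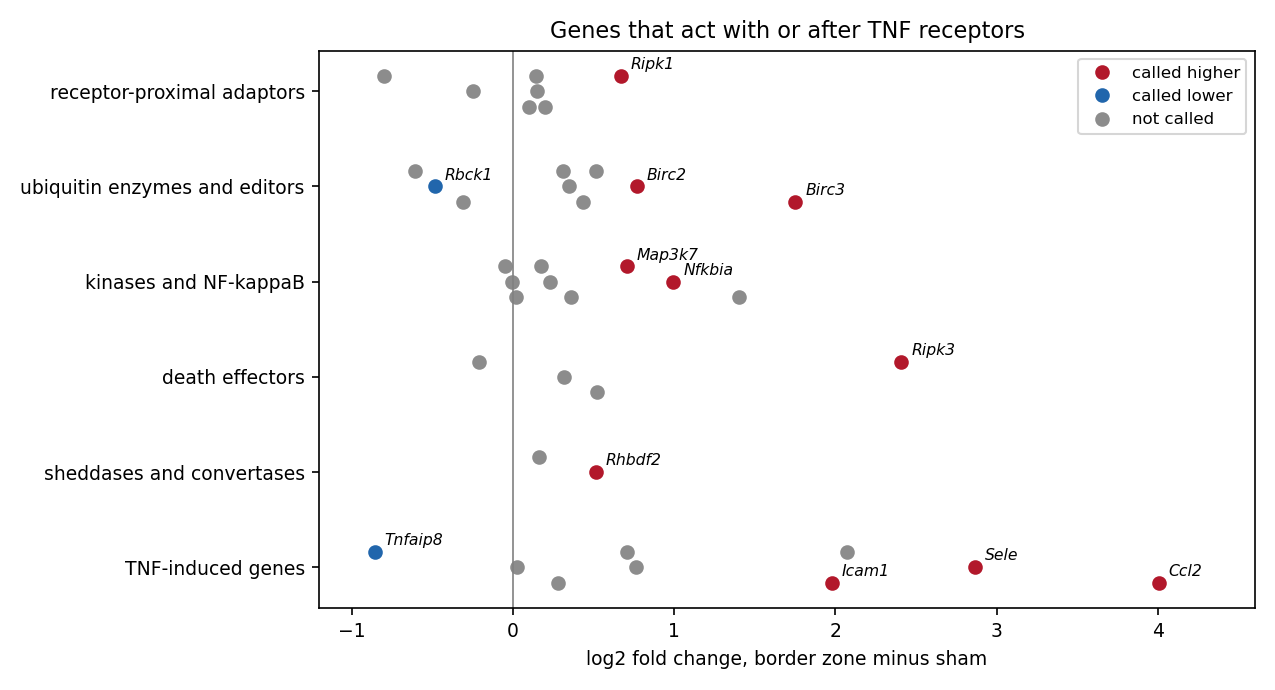
Log2 fold change (border zone minus sham) of tested genes that act with or after TNF receptors, 1 row per list, red where called higher, blue where called lower and grey where not called. Ccl2 at 4.01 and Ripk3 at 2.41 have the highest values of their lists.

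Markers of other cell types differed between the groups as well. Of 7 measured neutrophil markers, 6 rose. Of these only S100a8 was well above background on every sham array, and the other 5 were tested through the border zone, where they are high. With normexp only S100a8 (4.08) and Fcnb (2.77) remained called, while Cxcr2 was at -0.092 and Mmp8 at 0.113. For the 7 neutrophil markers, the summed signal was 5.91 to 6.26 in the border zone against 0.245 to 0.396 in sham. Of 9 monocyte and macrophage markers, 4 rose and 1 fell, with summed signals of 82.6 to 85.9 and 43.3 to 50.8. In these sums Lyz2 weighs heavily, as the brightest of the 9 probes in the border zone (5.56 to 5.65, against 3.64 to 4.27 in sham). Cd14, C1qb and Mrc1 also rose, Adgre1 fell, and Cd68, Csf1r, Ccr2 and C1qa were not called. Endothelial markers had 1 fall among 4 tested (10.4 to 13.2 in the border zone, 14.9 to 17 in sham), and fibroblast markers 1 rise and 2 falls among 5 (65.8 to 78.4 and 94.5 to 120). Of 4 measured B cell markers, 2 were tested and neither passed. Red cell markers (3 tested, none passed) ranged from 7.49 (M24) to 62.8 (M17) in the border zone and from 52.8 to 69.8 in sham. The part of these cell types in the rises of Tnfrsf1b, Tnfrsf1a, Ltbr and Tnfrsf12a was not tested.

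Across the 13 alternatives, Tnfrsf12a (log2 fold change 3.03 to 3.54), Tnfrsf1a (1.55 to 2.21) and Tnfrsf1b (1.14 to 1.6) kept their calls in every one. Their highest adjusted p values were 0.0132, 0.0407 and 0.0369, each without M25. Tnfsf10 and Tnfrsf25 kept theirs in 11, Ltbr in 10, Tnfrsf18 in 8 and Faslg and Ngfr in 6. Without M25, 3 members rose and none fell in limma (5 lower at an unadjusted p under 0.05), against 1.59% and 1.24% of all probes (2.83% called). With scan as a block, 4 rose and 1 fell, against 8.43% and 7.5% (15.9% called).

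**Figure D5:**
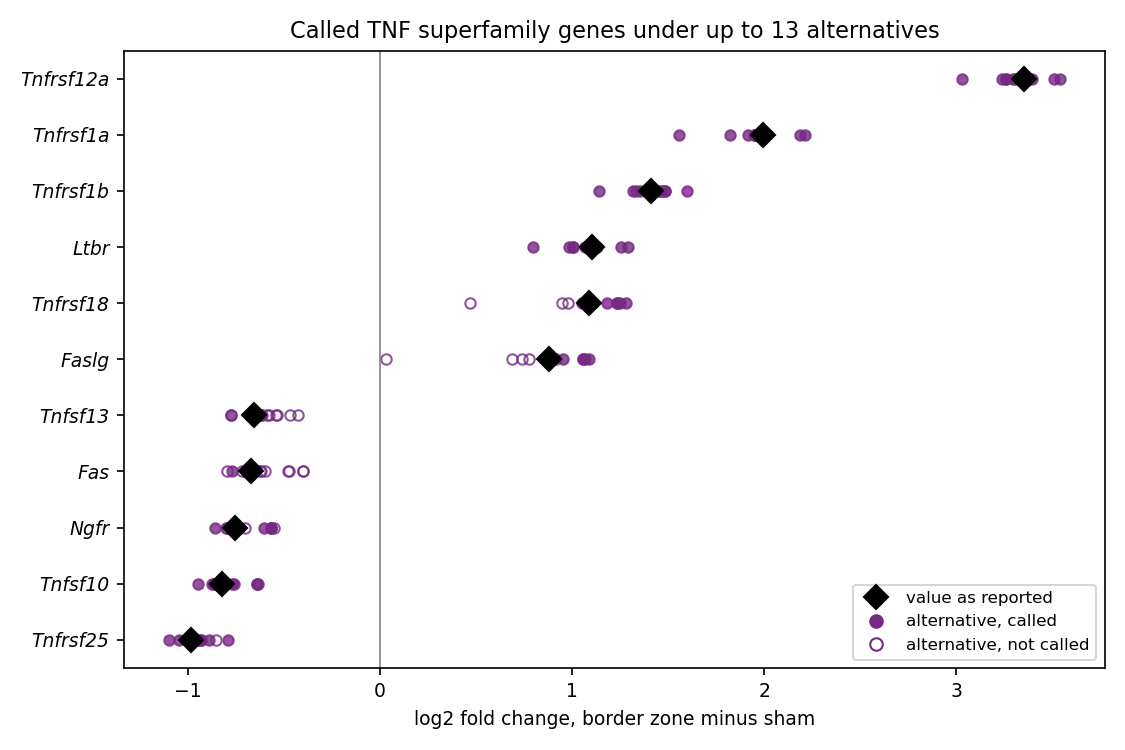
Log2 fold change (border zone minus sham) of the 11 called members under the reported setting (black diamonds) and under up to 13 alternatives (purple, filled where called, open where not). Tnfrsf12a, Tnfrsf1a and Tnfrsf1b have filled points throughout, and Faslg spans 0.030 to 1.09.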

How the data were processed

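Agilent 1-colour arrays were read with Agilent Feature Extraction 11.0.1.1, per the submitters' processing notes. The deposited scanner tables hold intensity per spot, which the authors' software had background-subtracted (processed signal), with flags for outliers and signal well above background; the headers name the build rn4. A deposited value table holds log2 values whose centring is not stated, with array medians of 5.53 to 5.54.

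Control and outlier spots were left out and the log2 processed signal of repeat spots was averaged, which left 24614 of 24684 probes. The probe values were then centred on each array's 75th percentile. Probes well above background on all 3 arrays of a group were tested with limma 3.58.1 (R 4.3.3; lmFit, eBayes; Benjamini-Hochberg over 17930 probes, adjusted p below 0.05). Genes were named by RefSeq accession through the GRCr8 table. Of 42 family genes there, 12 had no matched probe and are not analysed here. By rule, per-array levels were given for called members and for non-overlapping ones changed at least 2-fold, and up to 4 called genes per pathway list were named; Tnf, Ltb, Tnfsf12, Tnfrsf11b and the pathway genes that did not pass were added after their values were seen. The members and lists were chosen with earlier results of these data known. Alternatives were scaling, filters, the value table, scan and leaving out each array. Normexp was planned on spot means, which were not used here, so it ran on spot medians (offset 50), chosen after seeing the data. The steps were tested on simulated data. For the limma fit these data held independent normal noise for each probe and no scan effect, so they cannot show how scan affects the calls here. Results of 3 listed genes are not reported here by name, and 1 of them is not plotted.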

Additional observations from a re-analysis of the deposited data

How the results depend on the processing

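Of the 11 called members, none changed sign under any of the 13 alternatives. Members that rose numbered 3 to 9 when 1 array was left out. Members that fell numbered 2 with median scaling, 3 with quantile normalization, 2 with normexp, 2 with no filter, 3 in the authors' value table, 1 with scan as a block, and 0 to 5 when 1 array was left out. Over all probes, 791 rose and 1035 fell with no filter, 929 fell with median scaling, and leaving out 1 array gave 286 to 3739 that rose and 223 to 3694 that fell. Without M25 the counts were the lowest. Sign changes were seen in genes that were not called, in log2 fold change. Lta was at 0.089 with quantile normalization and 0.086 in the value table. Tnf was at 0.060 with median scaling and at -0.426 to 0.217 with 1 array left out. Tnfsf15 was at -0.632 with normexp and at -0.065 to 0.221 with 1 array left out. Cd40 was at 0.081 with median scaling, 0.038 with quantile normalization, 0.037 in the value table and -0.217 to 0.012 with 1 array left out. With normexp, Cd27 was at -0.114, Tnfrsf14 at -0.350, Tnfrsf17 at -0.218, Tnfrsf4 at -0.532 and Tnfrsf9 at -0.333, and with scan as a block Tnfrsf14 was at -0.004. The cause was not tested. Normexp on spot means was not run. No paired analysis was possible because the labels of the groups share no replicate number. Precision is limited by 3 arrays per group and by the higher background of C5 and C6.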
